A study of Brachypodium distachyon with 7 samples.

Results

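H3K4me3, the trimethylation of lysine 4 of histone H3, was compared between Brachypodium distachyon seedlings that had been through cold and returned to warmth (V30N) and seedlings that had no cold (V0). The comparison used 3 of the 7 libraries of the series: the 1 H3K4me3 library of V30N and the 2 H3K4me3 libraries of V0, called V0 library 1 and V0 library 2 here. All plants were of the diploid line ABR1, the pooled aerial parts were used, and no transgene or mutation was involved. V30N seedlings were grown for 7 days at 24 °C with 16 h of light and 8 h of dark, kept at 4 °C for the next 30 days and then moved to the first regime again for 7 days. V0 seedlings were taken 17 days after sowing under the same light and temperature without cold. Seedlings at the end of 30 days of cold (V30), which had grown for 14 days beforehand, are outside the comparison. Their H3K4me3 library, V30, is used for single values, for counts of genes at which libraries pair, and in the choice of genes. The protocol chose the V30N schedule to match developmental stage, so total age, growth before cold and cold itself cannot be told apart. The design text calls V0 library 2 a biological replicate, V30N has a single library, and each library pools seedlings.

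H3K4me3 is placed by Trithorax-type methyltransferases around the first nucleosomes of transcribed genes and is widely used as a marker of active promoters. H3K27me3, placed by Polycomb complexes, marks repressed genes, and both marks are known to change at vernalization genes of cereals during long cold. The comparison asks whether H3K4me3 still differs from the level without cold once plants have resumed growth in warmth.

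Each deposited table gave 1 signal value for each of 11752 genes. In every library, 1 value recurred at many genes, and it is called the tied value. It was 25.4 at 208 genes in V30N, 23.2 at 74 genes in V0 library 2 and 22.3 at 1139 genes in V0 library 1, and V30 had 22.9 at 1012 genes. The tied genes hardly coincided: 1 gene, the flowering gene FT2, was tied in both V30N and V0 library 2. The 3 genes tied in both V0 libraries included FT2 and VRN1, another flowering gene. At the 207 other genes tied in V30N, the signal in V0 library 2 ranged from 24.9 to 83.9 with a median of 43.3, and all of these values lay above that library's own tied value. A tied value therefore stood at genes with a wide range of signal elsewhere, and the 2429 genes tied in any H3K4me3 library were left out, which kept 9323 genes. Over these, the median signal was 54.9 in V30N, against 56.6 in V0 library 2 and 46.6 in V0 library 1. Differences were taken as log2(signal + 9.41) with each library centred on its median. As deposited, the median difference was -0.04 for V30N against V0 library 2 and 0.17 for V30N against V0 library 1.

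V30N and V0 library 2 were the most alike of the compared libraries. This closeness was known from earlier results of these data and is why V0 library 2 is given before V0 library 1, so it is a description here. The highest signal was 265 in V30N and 283 in V0 library 2, against 1031 in V0 library 1 and 1133 in V30. V30N and V0 library 2 thus also paired in range, across the conditions, and the cause was not tested. Over the 9323 genes, which share each library and so are not replicates, the correlation (Pearson's r) was 0.960 between V30N and V0 library 2, 0.910 between V30N and V0 library 1, and 0.902 between the V0 libraries. The SD over genes of the log2 difference was 0.18 for V30N minus V0 library 2, 0.26 for V30N minus V0 library 1 and 0.28 for V0 library 2 minus V0 library 1. The pair of V0 libraries had the largest SD of the 3 pairs, so the gap between libraries of 1 condition was not smaller than that between conditions. The share of genes within 1.2-fold was 86.9% for V30N against V0 library 2, 69.6% for V30N against V0 library 1 and 66.5% between the V0 libraries. Among the 100 genes of highest signal in V30N, 67 were among the 100 highest of V0 library 2 and 59 among those of V0 library 1, while the V0 libraries shared 55.

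**Figure D1:**
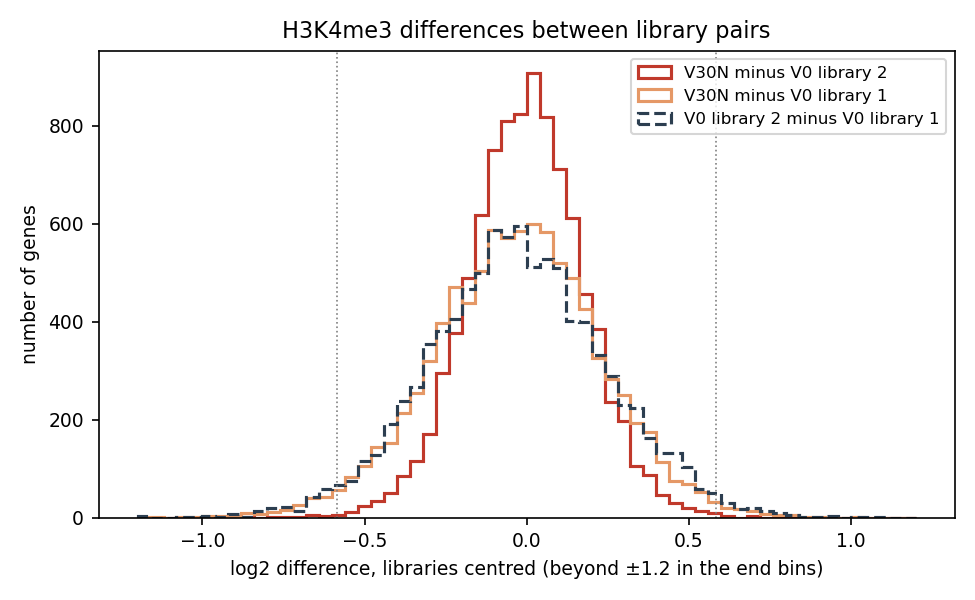
Histograms of the log2 H3K4me3 difference (x axis, libraries centred) over 9323 genes (y axis, number of genes) for V30N minus V0 library 2, V30N minus V0 library 1 and V0 library 2 minus V0 library 1. Dotted lines mark 1.5-fold. The distribution of V30N minus V0 library 2 is the narrowest, with an SD of 0.18, and the other pairs have SDs of 0.26 and 0.28.

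Few genes passed a size threshold against V0 library 2. At 1.5-fold, V30N was higher at 11 genes and lower at 15, which are 0.118% and 0.161% of the 9323 genes, and at 2-fold there were 0 in either direction. The split was 4 higher and 23 lower with values as deposited. Against V0 library 1, V30N was higher at 82 genes (0.88%) and lower at 191 (2.05%) by 1.5-fold. The V0 libraries differed by more: V0 library 2 was higher than V0 library 1 at 125 genes (1.34%) and lower at 219 (2.35%). At 1.2-fold, V30N was higher at 604 genes (6.48%) and lower at 616 (6.61%) than V0 library 2, and higher at 1161 (12.5%) and lower at 1677 (18%) than V0 library 1. V0 library 2 was higher at 1333 (14.3%) and lower at 1790 (19.2%) than V0 library 1 at that size.

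Low genes made up most of the larger differences. Of the 26 genes past 1.5-fold against V0 library 2, 18 were among the 25% of genes with the lowest mean level, 9 higher and 9 lower. The SD of V30N minus V0 library 2 was 0.21 in this lowest quartile and 0.15 in the highest. The SD between the V0 libraries was 0.32 in the lowest quartile and 0.26 in the highest, so the order of the pairs was the same at both ends of the range. The median difference of V30N from V0 library 2 was 0.02 in the lowest quartile and -0.03 in the highest. By the chromosome digit of the identifier, the median of V30N minus V0 library 2 lay between -0.01 and 0.01 for all 5 chromosomes. Differences of genes next to each other in identifier order were nearly unrelated, with r = 0.02 over 9318 neighbouring pairs for V30N minus V0 library 2.

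**Figure D2:**
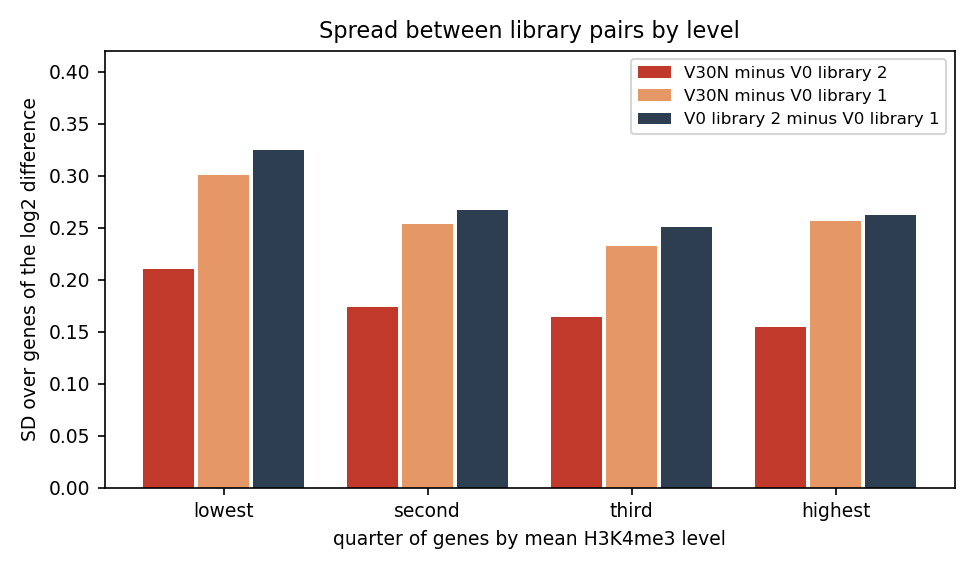
SD over genes of the log2 H3K4me3 difference (y axis) in quartiles of genes by mean level (x axis), for V30N minus V0 library 2, V30N minus V0 library 1 and V0 library 2 minus V0 library 1. In each quartile the bar for V30N minus V0 library 2 is the shortest, from 0.21 in the lowest quartile to 0.15 in the highest.

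V30N lay above both V0 libraries at 2503 genes (26.8%), below both at 2915 (31.3%) and between them at 3905 (41.9%). By at least 1.2-fold against each V0 library, V30N was higher at 128 genes (1.37%) and lower at 222 (2.38%). By 1.5-fold, it was higher at 1 gene (0.0107%) and lower at 4 (0.0429%), and by 2-fold at 0. No gene had V30 and V30N together 1.5-fold above or below both V0 libraries. In contrast, 26 genes had V0 library 1 and V30 both at least 1.5-fold above V0 library 2 and V30N, and 10 genes had them below. This pairing of libraries runs across the conditions, and its cause was not tested.

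limma's moderated test of V30N against the V0 libraries, with Benjamini-Hochberg adjustment over 9323 genes, called 0 genes higher and 1 lower (0.0107%). At an unadjusted p under 0.05, limma gave 22 higher (0.236%) and 87 lower (0.933%), 109 in all, against 24 with values as deposited. The median SE of a difference was 0.22. The 1 residual degree of freedom comes from the V0 libraries, and the variance prior outweighed it completely, so V30N was assumed to vary as V0 does and a gene's own gap between V0 libraries did not enter its SE. With no differences and a fitting SE, a share of about 0.05 of genes would pass unadjusted, and a smaller share did. The SE rests on the gap between the V0 libraries (SD 0.28), which was wider than V30N minus V0 library 2 (SD 0.18). A gene that limma did not call is therefore not shown to be unchanged. The called gene, Bradi1g37940, was chosen after its values were seen. It had a signal of 16.9 in V30N, against 18.7 in V0 library 2 and 153 in V0 library 1, and V30 had 168. V30N and V0 library 2 were low together, and V0 library 1 stood apart with V30. The log2 difference from the V0 mean was -1.44 (SE 0.24, limma adjusted p = 1.23e-05). It was -0.06 without V0 library 1 and -2.82 without V0 library 2, so the call rests on V0 library 1. The call also ended with values as deposited (difference -1.36, limma adjusted p = 0.273) and with quantile normalization (difference -1.39, limma adjusted p = 0.520), although the difference stayed about as large.

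**Figure D3:**
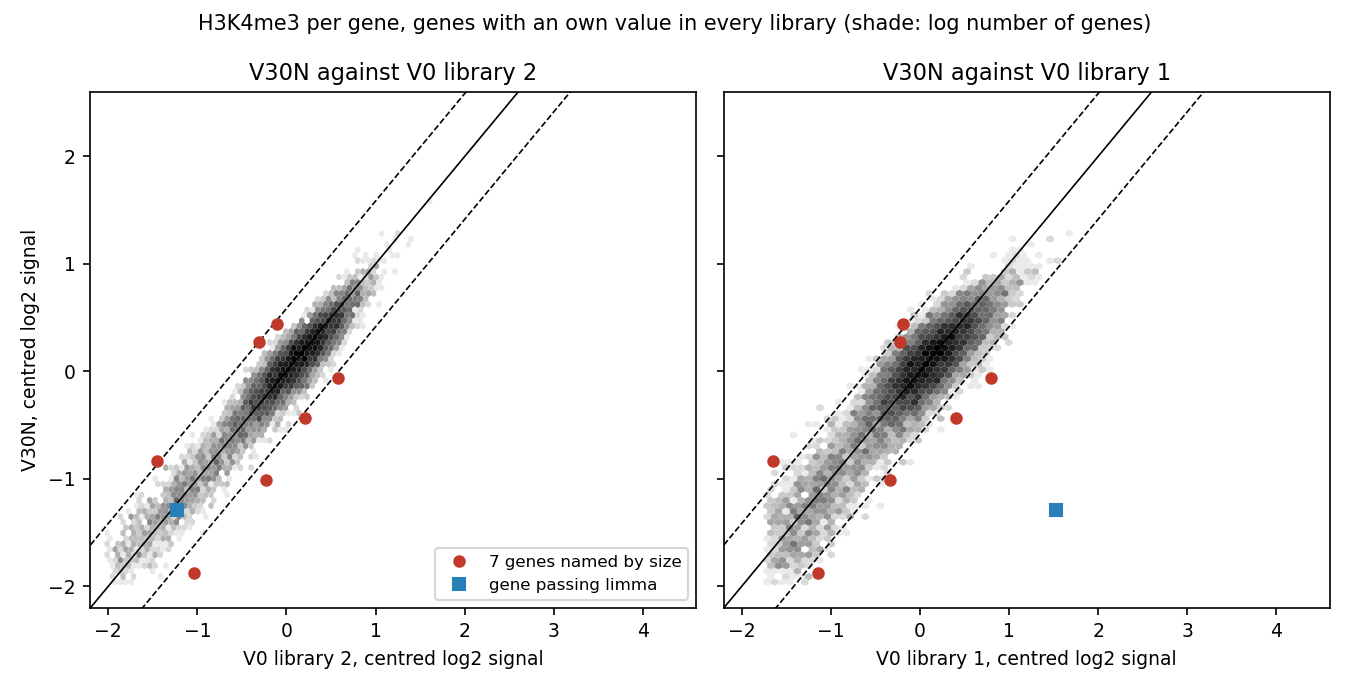
Centred log2 H3K4me3 signal of V30N (y axis) against V0 library 2 (left, x axis) and V0 library 1 (right, x axis) for 9323 genes, shaded by the log number of genes. The solid line is equality, dashed lines are 1.5-fold, red points are the 7 genes named by size and the blue square is Bradi1g37940, which lies on the line of equality at left and far from it at right.

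The genes that differed most from both V0 libraries, among those above the lowest quartile of level, were given by the smaller of their differences. None of the identifiers in the tables matched the RefSeq gene table, so they carry no name or function here. Among genes with more signal in V30N, Bradi1g61380 had 77.7 in V30N, against 52.1 and 39.6 in V0 libraries 2 and 1. Its differences were 0.54 and 0.63, and V30 had 48.1, so the V30N value stood above all 3 others. Bradi1g44290 had 68.4 in V30N, against 43.7 and 38.8 in V0 libraries 2 and 1, with differences of 0.59 and 0.49, and 49.3 in V30. In both genes the V0 libraries were close to each other. That V30N lay outside them follows from how the genes were chosen.

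Among genes with less signal in V30N, Bradi3g33340 had 52.1 in V30N, against 89.4 and 87.9 in V0 libraries 2 and 1. The differences were -0.65 and -0.86, and V30 had 86.8, close to V0. Bradi1g67830 had 38.1 in V30N, against 66.7 and 64.6 in V0 libraries 2 and 1, with differences of -0.64 and -0.84. Its V30 signal was 36.5, so both libraries from plants with cold were low while both V0 libraries were high. Against the V0 mean, the difference was -0.75 (SE 0.21) for Bradi3g33340 and -0.74 (SE 0.22) for Bradi1g67830. None of these 4 genes passed limma's test over all genes (adjusted p = 0.9997 for each).

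The other 3 genes past 1.5-fold against both V0 libraries were all in the lowest quartile of level and were chosen after their values were seen. Bradi3g28920, the 1 gene with more signal, had 26.7 in V30N, against 14.7 and 8.40 in V0 libraries 2 and 1, and 17.6 in V30. Bradi1g71950 had 22.5 in V30N, against 46.9 and 35.1 in V0 libraries 2 and 1. Bradi3g22980 had 8.10 in V30N, close to the lowest signal in that library of 7.12, against 22.9 and 16.0 in V0 libraries 2 and 1. At these low levels the SE was between 0.25 and 0.31, and limma's adjusted p was 0.9997 for all 3.

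**Figure D4:**
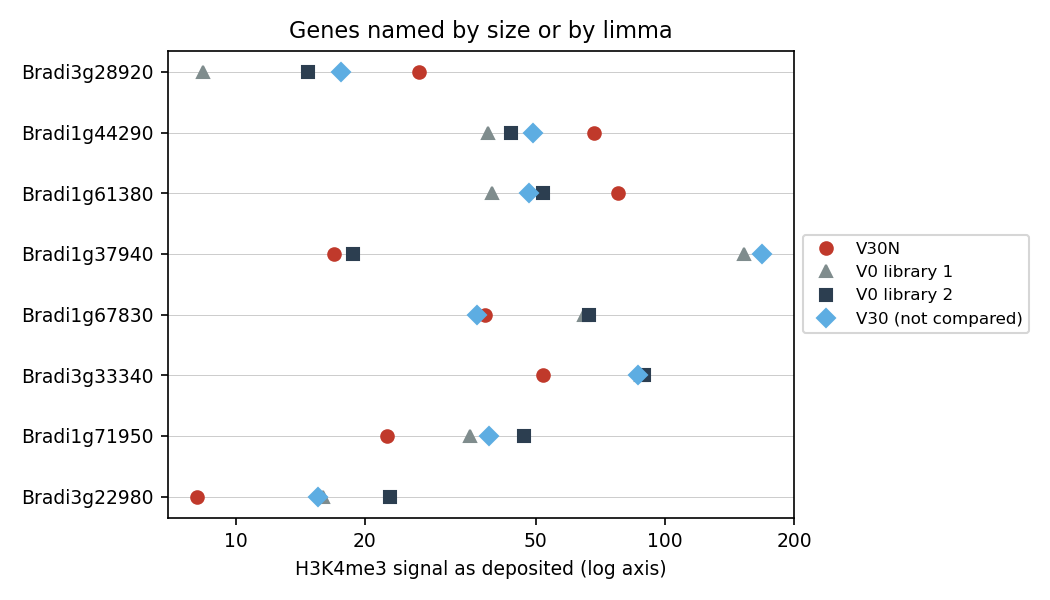
Deposited H3K4me3 signal (x axis, log scale) at 8 genes (y axis) in V30N, V0 library 1, V0 library 2 and, for reference, V30. At 7 genes, chosen for differing from both V0 libraries, the V30N point lies outside both V0 points. At Bradi1g37940 the V30N point lies beside V0 library 2, while V0 library 1 and V30 are at 153 and 168.

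Gene lists were formed by locus identifier from published assignments, which the tables and the RefSeq gene table did not allow to be checked. Of 63 listed loci, 30 had an H3K4me3 value and 25 of these had no tied value. Over the 25, the median of V30N minus V0 library 2 was -0.05, against -0.0009 over all 9323 genes. At 1.5-fold against V0 library 2, 0 of the 25 were higher or lower, where 0.118% and 0.161% of all genes were. V30N lay above both V0 libraries at 3 of the 25, below both at 11 and between them at 11, where the shares of all genes were 26.8%, 31.3% and 41.9% in that order. limma called 0 of the 25 in either direction, with 0 at an unadjusted p under 0.05 and an adjusted p of 0.9997 as the smallest.

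**Figure D5:**
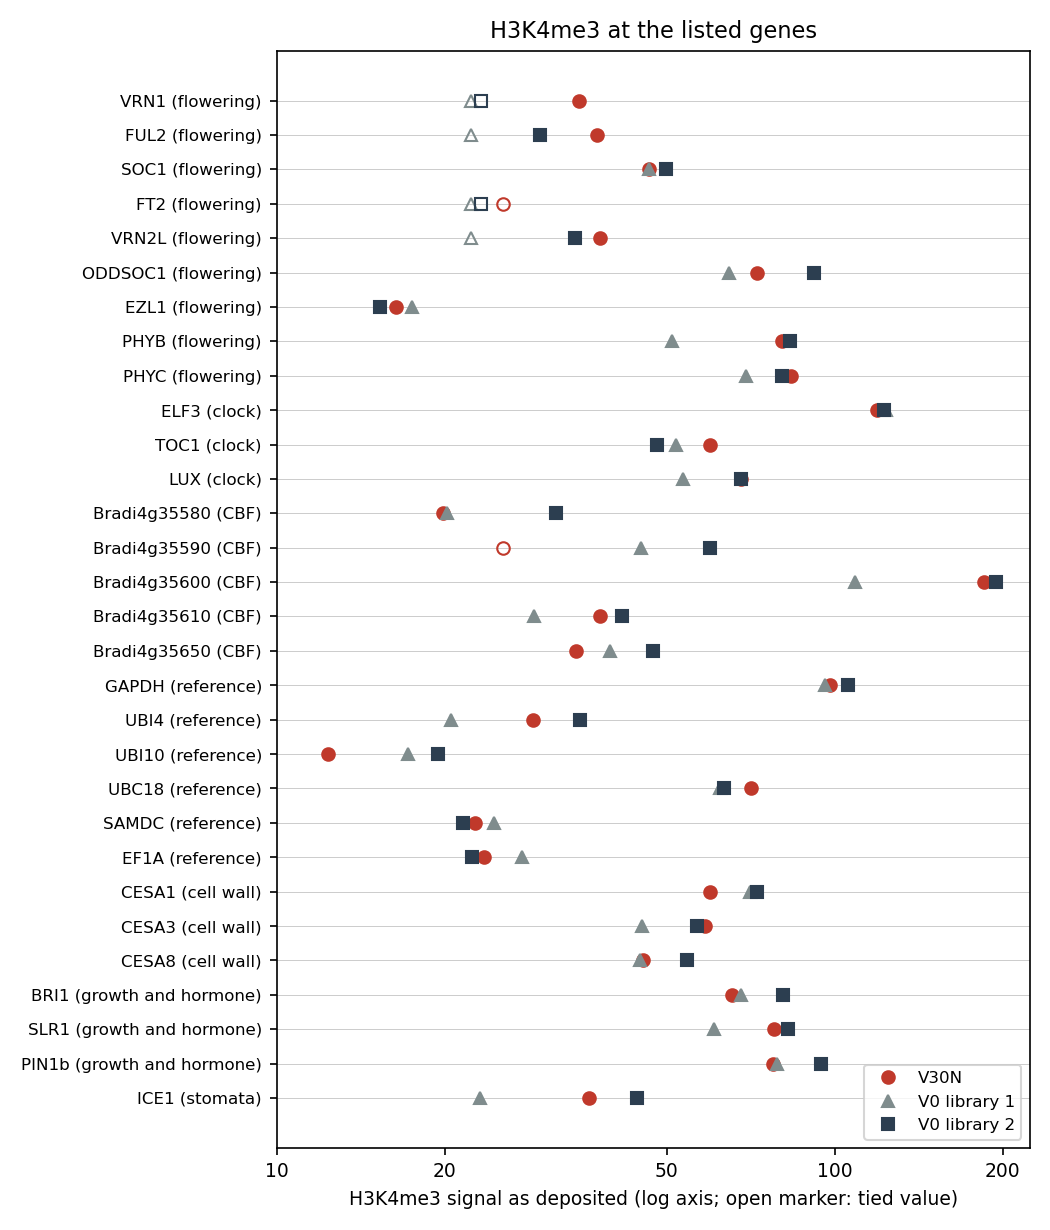
Deposited H3K4me3 signal (x axis, log scale) at the 30 listed genes with a value (y axis, with list) in V30N, V0 library 1 and V0 library 2. Open markers are tied values, which occur at VRN1, FUL2, FT2, VRN2L and Bradi4g35590.

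In temperate grasses, the MADS-box gene VRN1 promotes flowering after cold, florigens of the FT family carry the signal to the shoot apex, and VRN2-type repressors act against it before cold. Of the 16 flowering loci, 9 had an H3K4me3 value. The genes at the centre of that pathway were those with tied values, so no fold change is given for them. VRN1 (Bradi1g08340) had 34.8 in V30N, which lay above 20.1% of genes in that library, against the tied values of 23.2 and 22.3 in V0 libraries 2 and 1. Its H3K27me3 signal was 460 in V30N, against 726 in V0, 1 library each. FUL2 (Bradi1g59250), a close relative of VRN1, had 37.5 in V30N, against its own value of 29.6 in V0 library 2 and the tied value in V0 library 1. VRN2L (Bradi3g10010), related to the repressor VRN2 of cereals, had 38.0 in V30N, against its own value of 34.2 in V0 library 2 and the tied value in V0 library 1. The florigen gene FT2 (Bradi2g07070) was tied in all 3 compared libraries. VRN1, FUL2 and VRN2L were below the median of the V30N library, and the level of FT2 is not known from a tied value. H3K27me3 did not differ alike across these genes. At FT2 it was 209 in V30N, against 337 in V0, and at FUL2 it was 1098 against 1202. VRN2L had 177 in V30N, against 178 in V0. The florigen gene FT1 (Bradi1g48830), which had no H3K4me3 value, had 604 in V30N, against 565 in V0. As centred log2 differences, H3K27me3 was at -0.61 at VRN1, -0.60 at FT2, -0.11 at FUL2, 0.01 at VRN2L and 0.11 at FT1.

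The 5 flowering genes with values of their own differed in both directions, from -0.27 at ODDSOC1 to 0.09 at EZL1 against V0 library 2. Their median was -0.01 for V30N minus V0 library 2 and -0.05 for V30N minus V0 library 1, and V30N was above both V0 libraries at 1, below both at 2 and between them at 2, against 26.8%, 31.3% and 41.9% of all genes. SOC1 (Bradi1g77020), a MADS-box gene that integrates flowering signals, had 46.5 in V30N, against 49.9 and 46.5 in V0 libraries 2 and 1. Once centred, the differences were -0.05 from V0 library 2 and -0.20 from V0 library 1, so the equal deposited values in V30N and V0 library 1 became a lower value in V30N. Its H3K27me3 was 316 in V30N, against 360 in V0. ODDSOC1 (Bradi2g59120), a MADS-box gene of the grass clade related to FLC of Arabidopsis, had 72.7 in V30N, against 91.8 and 64.5 in V0 libraries 2 and 1. V30N lay between these libraries as deposited and, once centred, below both, with differences of -0.27 and -0.05. EZL1 (Bradi1g48340), a Polycomb histone methyltransferase gene, was low in every library, with 16.3 in V30N, against 15.3 and 17.5 in V0 libraries 2 and 1, and differences of 0.09 and -0.26.

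The phytochromes PHYB (Bradi1g64360) and PHYC (Bradi1g08400) are red-light receptors, and PHYC is needed for flowering in long days in Brachypodium. PHYB had 80.5 in V30N, against 83.3 in V0 library 2 and 51.2 in V0 library 1. The difference was -0.01 from V0 library 2 and 0.37 from V0 library 1, so its size depended on the V0 library used. PHYC had 83.6 in V30N, against 80.3 and 69.4 in V0 libraries 2 and 1, with differences of 0.09 and 0.04. In V30N, PHYB lay above 90.5% and PHYC above 92.6% of genes.

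Of the 5 clock loci, 3 had a value, none of them tied. ELF3 (Bradi2g14290) and LUX (Bradi2g62067) encode parts of the evening complex, which represses its targets at night. ELF3 had 119 in V30N, against 123 in each V0 library, and lay above 99.3% of genes in V30N. Its centred difference was -0.01 from V0 library 2 and -0.25 from V0 library 1. The deposited V0 values were nearly equal, so the gap between these differences came from centring. Against the V0 mean the difference was -0.13 once centred and -0.05 as deposited. LUX had 68.0 in V30N, against 67.9 and 53.5 in V0 libraries 2 and 1, with differences of 0.04 and 0.10. TOC1 (Bradi3g48880), a pseudo-response regulator gene expressed in the evening, had 59.8 in V30N, against 48.0 and 51.9 in V0 libraries 2 and 1. Its differences were 0.31 from V0 library 2, the largest upward among the 25 genes, and -0.02 from V0 library 1. The 2 differences had opposite signs once centred, although V30N was above both V0 libraries as deposited. Against the V0 mean the value was 0.14 (SE 0.22). ELF3 had an H3K27me3 signal of 56.5 in V30N, against 73.3 in V0.

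CBF genes encode AP2-type activators that switch on cold-responsive genes within hours of chilling. Of 11 listed loci, 5 had a value, and 4 of these had no tied value. All 4 were lower in V30N than in V0 library 2, with a median difference of -0.20, where 4676 of all 9323 genes were lower. The median difference from V0 library 1 was -0.06. Bradi4g35580 had 19.8 in V30N, against 31.7 and 20.2 in V0 libraries 2 and 1, with differences of -0.45 and -0.22. Bradi4g35650 had 34.4 in V30N, against 47.3 and 39.6, with differences of -0.34 and -0.36. V30N was below both V0 libraries at these 2 genes, as at 31.3% of all genes. At Bradi4g35580, the deposited values of V30N and V0 library 1 were close, so the difference of -0.22 came mostly from centring. That gene was in the lowest quartile of level (SE 0.28). Bradi4g35600, the listed gene with the highest signal in V30N, had 185 in V30N, against 195 in V0 library 2 and 109 in V0 library 1, with differences of -0.03 and 0.52. Bradi4g35610 had 38.0 in V30N, against 41.6 and 28.9, and lay between the centred V0 values. The fifth gene, Bradi4g35590, was tied in V30N, against 59.8 and 45.0 in V0 libraries 2 and 1.

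None of the 4 CBF genes passed limma's test (smallest unadjusted p = 0.14, adjusted p = 0.9997). H3K27me3 at the CBF genes that carried both marks differed upward, by 0.06 at Bradi4g35580, 0.23 at Bradi4g35590 and 0.11 at Bradi4g35600. There was 1 H3K27me3 library for V30N and 1 for V0. Over the 1448 genes with both marks and no tied value, the median H3K27me3 difference was -0.01 and the SD 0.20. Bradi4g35590, tied in V30N, has no H3K4me3 difference, and those of Bradi4g35600 had opposite signs. The IRI genes, which encode ice recrystallization inhibition proteins, had no H3K4me3 value at any of the 6 listed loci, whereas 5 had an H3K27me3 value. H3K27me3 differed downward at all 5, with a median of -0.44, against 0.01 over all 6554 genes with an H3K27me3 value.

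Genes used as references in expression assays differed by -0.37 to 0.18 from V0 library 2. GAPDH (Bradi3g14120), a glycolysis gene, had 98.2 in V30N, against 106 and 96.2 in V0 libraries 2 and 1, with differences of -0.06 and -0.17. UBC18 (Bradi4g00660), a ubiquitin-conjugating enzyme gene, had 70.8 in V30N, against 63.4 and 62.4, with differences of 0.18 and -0.04. At GAPDH and UBC18, V30N was above V0 library 1 as deposited and below it only once centred. UBI10 (Bradi1g32860), a polyubiquitin gene, had 12.3 in V30N, against 19.5 and 17.2, with differences of -0.37 and -0.49. It was the lowest of the 30 listed genes in V30N, and the SE of its difference was 0.31. SAMDC (Bradi5g14640), for polyamine synthesis, and EF1A (Bradi1g06860), a translation elongation factor gene, each differed by 0.09 from V0 library 2, and UBI4 (Bradi3g04730) by -0.18. Against V0 library 1 the signs were opposite, with -0.28 for SAMDC, -0.37 for EF1A and 0.15 for UBI4. In V30N, SAMDC had 22.6, EF1A 23.5 and UBI4 28.8. Like UBI10, each was in the lowest quartile of level, and their SEs were 0.26 to 0.28. Over the 6 genes the median was 0.01 for V30N minus V0 library 2 and -0.23 for V30N minus V0 library 1.

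Of 7 cell wall loci, 3 had a value, and V30N was below both V0 libraries at 2 and above both at 1, where 31.3% of all genes were below and 26.8% above. The median was -0.18 for V30N minus V0 library 2 and -0.18 for V30N minus V0 library 1. CESA1 (Bradi2g34240), a cellulose synthase gene of primary walls, had 59.7 in V30N, against 72.7 and 70.6, with differences of -0.21 and -0.41. CESA8 (Bradi2g49912), of secondary walls, had 45.3 in V30N, against 54.3 and 44.7, with a difference of -0.18 from each. V30N lay between the V0 libraries at CESA8 as deposited and below both once centred. CESA3 (Bradi1g54250), also of primary walls, was the member above both, with 58.6 in V30N, against 56.7 and 45.2. With 3 genes and none past limma's test (adjusted p = 0.9997), this is a description of these libraries.

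Of 6 growth and hormone loci, 3 had a value, with a median of -0.22 against either V0 library, and V30N was below both at 2, against 31.3% of all genes. None passed limma's test (smallest unadjusted p = 0.259, adjusted p = 0.9997). The brassinosteroid receptor gene BRI1 (Bradi2g48280) had 65.3 in V30N, against 80.6 and 68.0 in V0 libraries 2 and 1, with differences of -0.23 and -0.25. PIN1b (Bradi3g59520), for an auxin efflux carrier, had 77.5 in V30N, against 94.6 and 78.6, with a difference of -0.22 from each. At both genes V30N was below V0 library 1 as deposited too. SLR1 (Bradi1g11090), for the DELLA repressor of gibberellin responses, had 77.9 in V30N, against 82.3 and 60.7, and lay between the centred V0 values. ICE1 (Bradi4g17460), a bHLH gene of the stomatal lineage whose Arabidopsis counterpart also acts upstream of CBF genes, had 36.3 in V30N, against 44.2 and 23.2 in V0 libraries 2 and 1. Its differences were -0.19 and 0.29. The V0 libraries stood on either side of V30N at SLR1 and ICE1.

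The H3K4me3 comparison was also split by the presence of H3K27me3. Of the 9323 genes, 1448 had an H3K27me3 value. Their median of V30N minus V0 library 2 was -0.01, against 0.0006 for the 7875 others, and 0.345% of them passed 1.5-fold, against 0.267% of the others. H3K27me3 was at least 1.2-fold higher in V30N than in V0 at 110 of the 1448 genes and at least 1.2-fold lower at 141. The median H3K4me3 difference from V0 library 2 was 0.01 at the 110 genes and -0.01 at the 141. Across the 1448 genes, r between the H3K27me3 and H3K4me3 differences was 0.04 with V0 library 2 and 0.05 with V0 library 1. The 2 marks were measured in separate libraries, and the H3K27me3 side rests on 1 library for V30N and 1 for V0.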

How the data were processed

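Per the labels' protocols, chromatin from pooled aerial parts was immunoprecipitated with antibodies to H3K4me3 or H3K27me3 and sequenced. The authors deposited 1 signal value per gene and library. Bowtie2 2.1.0 is named in the submitters' processing notes. Build, annotation, input correction and normalization are not given in the sources used here. Depth is thus unknown, and intervals from counts could not be had. The pseudocount was the 1st percentile of all H3K4me3 values (9.41) and, for H3K27me3, 27.3. It understates the change of low genes. The tied value of a library is its most frequent value. The 3 libraries were fitted with limma 3.58.1 in R 4.3.3, with the prior variance following level and a threshold of 0.05 on the adjusted p, after a check on simulated data. Genes were named by list, then as the 2 highest and 2 lowest above the lowest quartile of level. Members and lists were chosen with earlier results of these data known. A further cell wall gene, left out of the lists, is not reported here. Alternatives covered scaling, pseudocount, tied genes, low genes, the prior, adding V30 and each V0 library, and 1.2-fold was added after the data were seen. Python 3.11.15, numpy 2.4.6, pandas 2.3.3 and matplotlib 3.10.9 were used.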

Additional observations from a re-analysis of the deposited data

How the results depend on the processing

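limma's count of 1 gene remained 1 with pseudocount 1, without the lowest 25% of genes and with V30 in the fit, and the same gene, Bradi1g37940, was called in each. With values as deposited the count was also 1, but that gene was not shared, and 24 genes had an unadjusted p under 0.05, against 109 as reported. The count was 0 with quantile normalization and 0 with all genes kept, with 147 and 117 genes at an unadjusted p under 0.05. It was 2 with the 5th percentile as pseudocount, 2 with genes tied in the 3 compared libraries left out and 2 without the variance trend, with Bradi1g37940 among them each time. Over the scaling and pseudocount alternatives its limma adjusted p lay between 3.39e-06 and 0.520. The 26 genes past 1.5-fold against V0 library 2 became 160 with pseudocount 1, 12 with the 5th percentile, 173 with tied genes kept, 8 without the lowest 25% of genes, 0 at 2-fold, 1220 at 1.2-fold and 273 against V0 library 1 alone. The 5 genes past 1.5-fold against both V0 libraries became 2 as deposited, 40 with pseudocount 1, 92 with tied genes kept, 2 without the lowest 25%, 0 at 2-fold and 350 at 1.2-fold, and leaving out a V0 library gave 26 to 273. With pseudocount 1 the SD was 0.22 for V30N minus V0 library 2, 0.33 for V30N minus V0 library 1 and 0.35 between the V0 libraries, so the order of the pairs was kept.

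Against the V0 mean, the list medians were -0.08 for flowering, 0.07 for clock, -0.16 for CBF, -0.11 for reference, -0.18 for cell wall and -0.22 for growth and hormone genes. As deposited they were -0.0032 for flowering, 0.15 for clock, -0.08 for CBF, -0.03 for reference, -0.10 for cell wall and -0.14 for growth and hormone genes. The cell wall median was -0.20 with quantile normalization, -0.21 with pseudocount 1 and -0.17 with the 5th percentile. The growth and hormone median was -0.18 with quantile normalization, -0.25 with pseudocount 1 and -0.21 with the 5th percentile. Leaving out each V0 library gave ranges of -0.048 to -0.0063 for flowering and -0.024 to 0.039 for clock genes. Some genes had differences of opposite sign against the 2 V0 libraries: EZL1 (-0.26 to 0.095), PHYB (-0.0063 to 0.37), TOC1 (-0.024 to 0.31), Bradi4g35600 (-0.034 to 0.52), Bradi4g35610 (-0.068 to 0.11), UBI4 (-0.18 to 0.15), UBC18 (-0.039 to 0.18), SAMDC (-0.28 to 0.085), EF1A (-0.37 to 0.087), SLR1 (-0.034 to 0.12) and ICE1 (-0.19 to 0.29). UBI4 was at 0.067 as deposited and 0.0036 with pseudocount 1, against -0.013 as reported. The cause was not tested for any of these.

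No paired analysis was possible because V30N has 1 library and the labels give it no number shared with a V0 library. limma could not be run with 1 V0 library, since no residual degree of freedom is left. Without read counts, how far depth limits the low genes cannot be given.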
